A study of Mus musculus with 8 samples.

Results

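The Myc, Max, Mxd and Mlx network is a set of basic helix-loop-helix leucine zipper transcription factors that compete for shared partners and for the same DNA sequence, the E-box CACGTG. The 10 members described here, Myc, Max, Mxd1, Mxd3, Mxd4, Mxi1, Mnt, Mlx, Mlxip and Mga, were taken by gene symbol from a table of 22063 genes, and all 10 were found and were measured deeply enough to enter the fit, as 10770 genes were. The list was selected on the measured counts, with the difference between tranilast and control already known, so its values in that contrast are given as a description, without a p-value. The study fed male C57BL/6J mice a high-fat, high-cholesterol (HFHC) diet and gave them tranilast, an anti-allergic drug, or its sodium carboxymethyl cellulose vehicle by daily gavage in the later part of the diet. RNA-seq was done on 4 libraries labelled control and 4 labelled control plus tranilast. All 8 carry the labels liver and wild type, and the labels name no diet. The dose behind the tranilast libraries is not given in the sources used here.

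In this network Max is the common partner. Myc and its relatives Mycn and Mycl bind DNA with Max, recruit histone acetyltransferases through Trrap and raise transcription of genes for growth, ribosome assembly and metabolism. The Mxd proteins, Mxi1 and Mnt bind the same sites with Max but recruit the Sin3 and histone deacetylase corepressors, and Mxd genes are typically turned on as cells stop dividing and differentiate. Mlx is a parallel partner, shared by Mxd1, Mxd4 and Mnt with the glucose-responsive factors Mlxip (MondoA) and Mlxipl (ChREBP), the latter the carbohydrate sensor of hepatocytes. Mga joins Max in a Polycomb complex, PRC1.6. The deposited annotation placed 9 members in the bHLH family and 1, Mga, in the T-box family, and Mga does carry a T-box DNA-binding domain as well.

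Control libraries held 14585153 to 15618787 counts each, and tranilast libraries 12053036 to 14679386. The label liver was not borne out by the markers of hepatocytes. Of 10 hepatocyte markers, including albumin and Apob, 8 had at most 3 counts in every library, and the 10 together held at most 0.000191% of any library. Macrophage markers held 0.906% to 0.960% of counts in the control libraries and 0.884% to 0.943% in the tranilast libraries, whereas the Kupffer cell markers Clec4f, Vsig4 and Timd4 were at 0 throughout and the fourth, Cd5l, had 0 to 2 counts in control and 1 to 8 in tranilast. Of the 10 macrophage markers, 7 were tested, of which 2 were called higher and 5 lower in tranilast, and the other 3 were nearly absent, with at most 1 count for Mertk, 11 for C1qa and 6 for C1qb. Markers of endothelial cells, stellate cells and fibroblasts, cholangiocytes, T cells, B cells and neutrophils were also nearly absent. Each of these lists held at most 0.000213% of any library. The libraries are therefore called by their labels, control and tranilast, and not by a tissue. Markers of cycling cells summed to 0.315% to 0.333% of counts in control and 0.173% to 0.180% in tranilast, and all 6 were lower in tranilast. Their part in the differences described here was not tested. In bulk RNA, fewer cells of a kind and less RNA per cell cannot be told apart.

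The E-box that the network binds also occurs near the start of some of its own genes, and the sequences are shown for that reason. RefSeq start sites on GRCm38.p6 gave a window from 250 bases before to 50 bases after the start for 9 of the 10 members. Myc had no such window, so its promoter was not examined. CACGTG, which reads the same on both strands, was present in the windows of 4 of them, against 8.09% of 27025 genes with such a window. The 30 bases around each match are written 5′ to 3′ on the strand of the gene, with the E-box in capitals.
Mxd4, chr5:34187912-34187941, minus strand: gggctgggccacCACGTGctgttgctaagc
Mnt, chr11:74830789-74830818, plus strand: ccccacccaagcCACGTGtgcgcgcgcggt
Mlx, chr11:101087238-101087267, plus strand: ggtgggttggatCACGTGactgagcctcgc
Max, chr12:76962234-76962263, minus strand: ggtgagcccggtCACGTGttagggggccga
The first base of the E-box lay 219 bases before the start in Mxd4, 123 in Mnt, 40 in Mlx and 3 in Max. Mxd1, Mxd3, Mxi1, Mlxip and Mga had no CACGTG in their windows, and neither did the relatives Mycn and Mycl. Mlxipl, which is also not a member, had it 98 bases before 1 of its start sites. These matches are letters in a sequence, and no binding was measured.

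Levels can be compared between genes only per transcript length, for which the deposited FPKM values (fragments per kilobase of transcript and scaled to depth) were used. Mycn, which is a relative and not a member, was the most abundant Myc family transcript by far, at 295 ± 6.36 FPKM in control and 301 ± 3.22 FPKM in tranilast (SD, n = 4 each). It ranked 213 and 201 among all genes. Myc was the least abundant of the 10 members in both groups, at 1.05 ± 0.214 FPKM in control and 0.412 ± 0.0599 FPKM in tranilast. Within each library the Mycn level was between 230 and 352 times the Myc level in control and between 620 and 896 times in tranilast. Mycl had at most 2 counts in any library and Mlxipl, the ChREBP gene, at most 4.

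Among the members Max stood highest in both groups, with 80.8 ± 5.92 FPKM in control and 69.8 ± 1.76 FPKM in tranilast. Mxi1 followed with 40.2 and 38.6 FPKM, and Mlx with 28.8 and 31.0 FPKM, and the ranges of these neighbours did not overlap in either group. In control libraries came next Mlxip at 13.8 FPKM, then Mnt at 11.7 FPKM and Mga at 10.999 FPKM, whose ranges overlapped, then Mxd4 at 3.02 FPKM and Mxd3 at 2.73 FPKM, whose ranges also overlapped, and then Mxd1 at 1.80 FPKM. In tranilast libraries Mxd4 stood at 12.1 FPKM, between Mlxip at 14.02 FPKM and Mga at 11.9 FPKM, and its range overlapped those of both. Mnt, at 14.3 FPKM, overlapped Mlxip. Mxd1 at 2.68 FPKM and Mxd3 at 2.30 FPKM overlapped each other. Mxd4 thus stood beside Mxd3 in control and beside Mlxip and Mga in tranilast, while the order of the 4 most abundant transcripts, Mycn, Max, Mxi1 and Mlx, was the same in both groups.

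**Figure D1:**
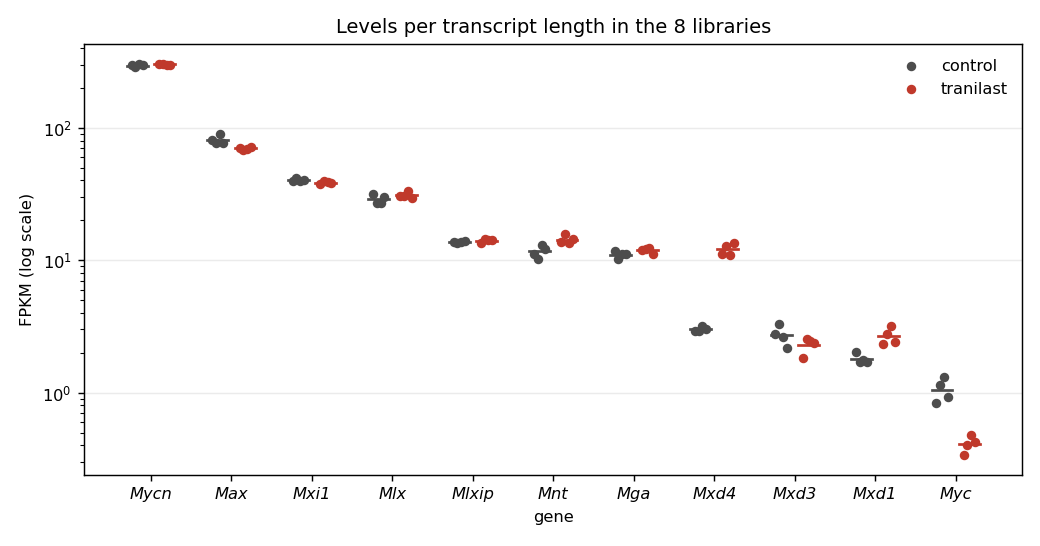
Level of each member and of Mycn in the 8 libraries, in FPKM on a log scale, with 1 point per library and a bar at the group mean, in the order of the control means. Mycn lies near 300 FPKM in both groups (means of 295 and 301), Mxd4 passes from 3.02 to 12.1 FPKM and Myc from 1.05 to 0.412 FPKM.

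Between the groups, the fit across all genes called 7 of the 10 members at an adjusted p under 0.05, of which 3 were higher in tranilast (Mxd4, Mxd1 and Mnt) and 4 lower (Myc, Max, Mxi1 and Mlxip). In the same fit 57.0% of all genes tested were called, 28.2% higher and 28.8% lower. For 6 members the groups did not overlap, as for 49.8% of all genes, and 2 members, Mxd4 and Myc, had a call together with a log2 fold change of 1.5 or more in size, as 1.11% of all genes did. The median log2 fold change was -0.07 over the 10 members and 0.01 over all genes. Since the contrast itself was used to pick the members, nothing is read from these counts. Scaled levels are given below as library-scaled counts, CPM, with factors from the trimmed mean of M-values (TMM CPM), with n = 4 libraries per group.

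**Figure D2:**
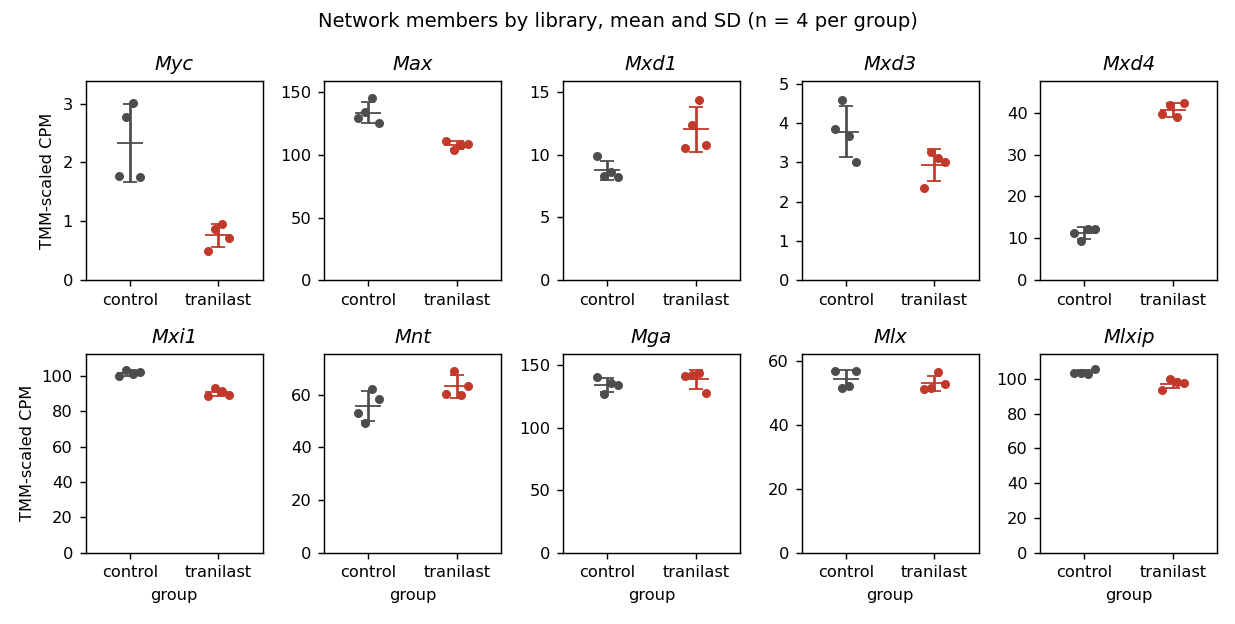
TMM CPM of each of the 10 members in the 4 control and 4 tranilast libraries, each panel on its own axis from 0, with points for libraries and a bar for mean and SD. Myc and Mxd4 show the widest separations relative to their level, with 2.33 against 0.760 CPM and 11.2 against 40.7 CPM, and the groups overlap for Mxd3, Mnt, Mga and Mlx.

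Myc (ENSMUSG00000022346, chr15:61985391-61990374 on GRCm38, plus strand), the growth-promoting oncoprotein of the network, was lower in tranilast. Its level was 1.78, 2.78, 3.01 and 1.74 TMM CPM in control libraries 1 to 4 and 0.497, 0.869, 0.958 and 0.718 TMM CPM in tranilast libraries 1 to 4. The highest tranilast library was thus below the lowest control library. These values rest on few reads, 25, 40, 45 and 25 counts in control and 7, 12, 12 and 11 in tranilast, so that the SD was 28.4% of the mean in control and 26.5% in tranilast. The log2 fold change was -1.62 ± 0.31 (SE) or 3.07-fold lower. Myc reached the level required for the fit in all 4 control libraries but in only 3 tranilast libraries, so it entered the fit through the group in which it was higher, and that limits what its fold change can show. With library totals alone the log2 fold change was -1.50. On log2(FPKM + 0.1) it was -1.16 and on log2(FPKM + 1) it was -0.54. An added constant shrinks the change of a gene this low. The transcript length implied by the Myc counts and FPKM also varied by 40.5% between libraries. How much each added to these differences was not tested. Mycn, read with 11321 counts per library on average, was 822 ± 17.03 TMM CPM in control and 773 ± 8.45 TMM CPM in tranilast, a log2 fold change of -0.09 ± 0.02 (edgeR quasi-likelihood, adjusted p = 0.00361), and its sign turned to 0.03 when libraries were scaled by their totals alone or FPKM values were used. Of the summed FPKM of Myc and Mycn, Myc made up 0.355% in control and 0.137% in tranilast.

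Max (ENSMUSG00000059436, chr12:76937269-76962201 on GRCm38, minus strand), the obligate partner of Myc, was lower in tranilast by a small margin. Its level was 129, 135, 145 and 126 TMM CPM in control and 111, 104, 108 and 109 TMM CPM in tranilast. The groups did not overlap, and the tranilast libraries lay closer together than the control libraries. The log2 fold change was -0.31 ± 0.04 (SE), and it stayed between -0.34 and -0.19 under all 18 alternatives that gave a value. Within libraries the Mycn level was 3.39 to 3.83 times that of Max in control and 4.16 to 4.51 times in tranilast, on FPKM.

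Mxd4 (ENSMUSG00000037235, chr5:34173883-34187720 on GRCm38, minus strand), a repressor that pairs with Max or Mlx, had the largest rise of the 10. Its level was 11.2, 9.31, 12.3 and 12.2 TMM CPM in control and 39.6, 42.0, 38.9 and 42.3 TMM CPM in tranilast. The lowest tranilast library was more than 3 times as high as the highest control library. The log2 fold change was 1.86 ± 0.08 (SE), or 3.62-fold, the 34th highest of all genes tested, and it lay between 1.70 and 1.97 under the 18 alternatives. Mxd4 is one of the 4 members with an E-box in the promoter window shown above, as are Mnt, Max and Mlx, of which Mnt was called higher, Max was called lower and Mlx was not called.

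The other repressors did not move as one. Mxd1, another repressor that pairs with Max or Mlx, was 9.89, 8.34, 8.62 and 8.24 TMM CPM in control and 10.5, 12.4, 14.4 and 10.8 TMM CPM in tranilast, with a log2 fold change of 0.45 ± 0.12 (SE). The lowest tranilast library stood just above the highest control library. Mnt, the broadly expressed antagonist of Myc, was 53.1, 49.4, 62.1 and 58.3 TMM CPM in control and 60.3, 69.1, 59.98 and 63.5 TMM CPM in tranilast, and control library 3 lay within the tranilast range. Its log2 fold change was 0.18 ± 0.07 (SE), and its call was lost when control library 1, control library 2 or tranilast library 2 was left out, with values of 0.16, 0.13 and 0.14. Mxi1, the most abundant repressor of the network, went the other way. It was 99.999, 103, 101 and 102 TMM CPM in control and 88.7, 92.9, 91.5 and 89.3 TMM CPM in tranilast. The groups did not overlap and each was tight, with SDs of 1.46% and 2.17% of the mean. The log2 fold change of -0.16 ± 0.04 (SE) was -0.05 under scaling by library totals and -0.06 on FPKM, where its call was lost. Mxd3, the member of the family known for its expression in S phase, ranged from 3.001 to 4.59 TMM CPM in control and from 2.34 to 3.26 TMM CPM in tranilast, so that the groups overlapped. Its log2 fold change was -0.37 ± 0.19 (SE), with a 95% interval from -0.75 to 0.015, and it was not called.

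Taken per length and summed, Mxd1, Mxd3, Mxd4, Mxi1 and Mnt came to 58.7, 59.6, 60.001 and 59.4 FPKM in control libraries 1 to 4 and 66.7, 73.5, 69.0 and 70.9 FPKM in tranilast libraries 1 to 4. The sum was thus higher in every tranilast library than in every control library, on a scale that follows library totals. On FPKM the median log2 fold change of all genes was 0.10 to 0.12, against 0.01 under TMM. The sum was not taken under TMM, where the groups did not overlap for 49.8% of all genes. That share was not counted on FPKM. Mxd4, which is part of the sum and was picked with this contrast known, went from a mean of 3.02 to 12.1 FPKM. The sum was not taken without Mxd4, so its separation says nothing of the other repressors. The make-up of the sum differed too. Mxd4 took 5.09% ± 0.195 (SD, n = 4) of the sum in control and 17.3% ± 1.34 in tranilast, and Mxi1 took 67.7% ± 1.54 and 55.2% ± 1.44. Mnt took 19.6% and 20.4%, with overlapping ranges. Mxd3 took 4.59% and 3.27%, and Mxd1 3.04% and 3.83%. Against Myc, Mxd4 was 2.44 to 3.48 times as high in control and 22.7 to 33.3 times as high in tranilast. Both genes were picked with this contrast known and differed in opposite directions, so nothing is read from this ratio. Myc had only 7 to 12 counts per tranilast library and entered the fit through control. The transcript length implied for Myc varied by 40.5% between libraries. The level of Mycn was 4.97 ± 0.108 times the repressor sum, Mxd4 included, in control and 4.31 ± 0.162 times in tranilast.

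**Figure D3:**
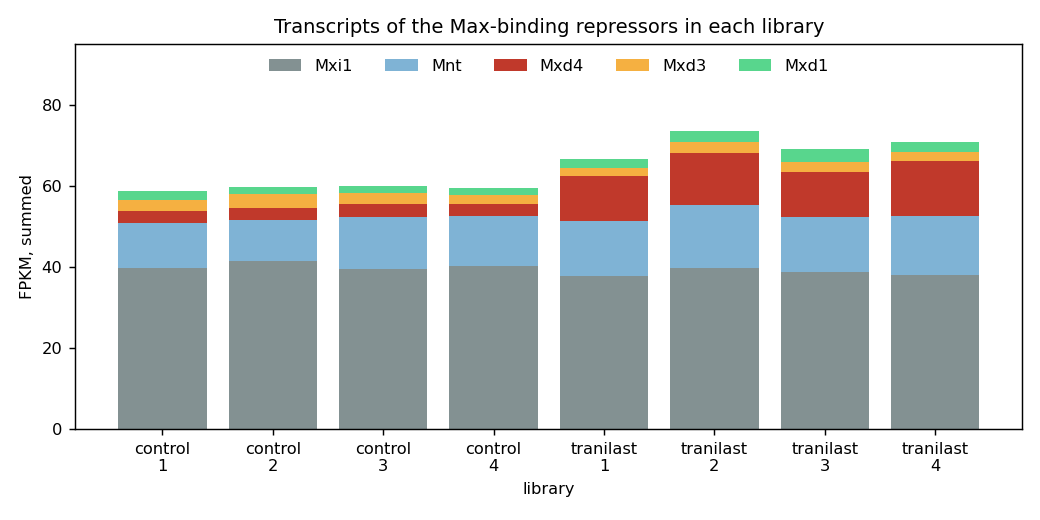
Summed FPKM of the Max-binding repressors Mxi1, Mnt, Mxd4, Mxd3 and Mxd1 in each of the 8 libraries, stacked from 0. The stacks reach 58.7 to 60.001 FPKM in control and 66.7 to 73.5 FPKM in tranilast, and the Mxd4 layer widens from 5.09% to 17.3% of the stack. FPKM follows library totals, and on it the median log2 fold change of all genes was 0.10 to 0.12. Mxd4 was picked with this contrast known, and the sum was not taken without it.

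On the Mlx side of the network the values lay close together. Mlx, the partner of MondoA, ranged from 51.6 to 57.0 TMM CPM in control and from 51.2 to 56.5 TMM CPM in tranilast, a log2 fold change of -0.04 ± 0.05 (SE, 95% interval from -0.14 to 0.06) that turned positive under 4 alternatives, with values from 0.03 to 0.11. Mlxip, the gene of MondoA, ranged from 103 to 105 TMM CPM in control and from 93.3 to 99.6 TMM CPM in tranilast. The groups did not overlap and the log2 fold change was -0.09 ± 0.04 (SE), but the value turned to 0.02 when libraries were scaled by their totals and to 0.02 or 0.03 on FPKM, and the call was lost under 10 further alternatives. Among these were the fits without control library 1, 2 or 4 and without tranilast library 1, 3 or 4, with values from -0.10 to -0.07. Max was 2.83 ± 0.354 times as abundant as Mlx in control and 2.25 ± 0.151 times in tranilast, on FPKM. The ranges of this ratio, 2.57 to 3.33 and 2.06 to 2.42, lay close without overlapping. Both genes were picked with this contrast known, and no share over all genes was taken for such ratios. The transcript lengths implied for Max and Mlx also varied between libraries, by 8.56% and 7.39%.

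Mga, the scaffold of PRC1.6, ranged from 127 to 141 TMM CPM in control and from 128 to 144 TMM CPM in tranilast. Its log2 fold change was 0.05 ± 0.04 (SE, 95% interval from -0.04 to 0.13) and it was not called, although it was called higher under upper-quartile scaling (0.11) and scaling by library totals (0.16). In tranilast library 4 Mga stood at 128 TMM CPM, whereas the other tranilast libraries stood at 142 to 144. Without that library the log2 fold change was 0.09, and without control library 2 it was 0.02.

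Small differences moved with the scaling. TMM factors were 0.956 to 0.965 in control and 1.04 in every tranilast library, and the median log2 fold change of all genes was 0.01 under TMM, 0.08 under upper-quartile scaling, 0.12 under library totals and 0.10 to 0.12 on FPKM. Of the genes called, TMM scaling put 49.5% higher in tranilast, upper-quartile scaling 62.6% and library totals 70.9%. Myc, Max and Mxd3 stayed below 0 and Mxd4, Mxd1, Mnt and Mga above 0 under every alternative that gave a value, while Mlxip and Mlx, within 0.10 of 0, changed sign. Mxi1 kept its sign.

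**Figure D4:**
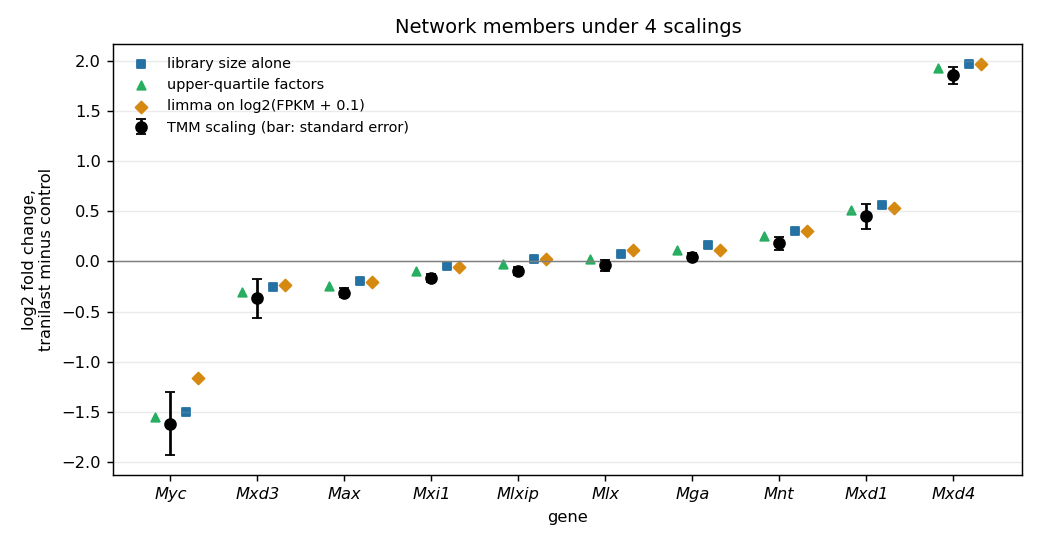
Log2 fold change of each member, tranilast minus control, under TMM scaling (points with SE) and under upper-quartile scaling, scaling by library totals and limma on log2(FPKM + 0.1). The other scalings give higher values than TMM for every member, and Mlxip and Mlx cross 0 while Myc (-1.62 with TMM) and Mxd4 (1.86) do not.

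The count, the FPKM value and the library total together imply a transcript length for each gene in each library. For Mxd1, Mxd3, Mnt and Mycn this length varied by no more than 0.109% of its mean over the 8 libraries. Scaling still separates the measures for these genes, since FPKM follows library totals. Mnt overlapped between groups in TMM CPM but ran from 10.3 to 12.96 FPKM in control and from 13.6 to 15.7 FPKM in tranilast, and Mycn was lower in tranilast in TMM CPM and overlapped in FPKM. For Mxd4 it varied by 23.3%, from 3048 bases in control library 2 to 3872 bases in control library 4. Control library 2, the lowest for Mxd4 in CPM, was close to control library 1 in FPKM, at 2.92 and 2.93. For Max the length varied by 8.56% and for Mlx by 7.39%, with overlapping groups. For Mga it ran from 11586 to 12005 bases in control and from 12038 to 12221 bases in tranilast, and the groups did not overlap. For Myc the length varied by 40.5%, on counts of at most 45. Neighbouring genes add a further limit. Mxd3 overlaps Prelid1, which had up to 5613 counts, and Mlx overlaps Psmc3ip, which had up to 282 counts, each on the opposite strand, and whether the counting used strand is not given in the sources used here.

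Genes that work with the network were described from lists drawn up by their roles. The lists were chosen with earlier results of these data known, so their counts and medians are a description. No list was tested as a set, and each adjusted p-value refers to a single gene. Of 13 coactivators of Myc, 2 (15.4%) were called higher and 8 (61.5%) lower, with a median log2 fold change of -0.20. Of all genes tested, 28.2% were called higher and 28.8% lower, with a median of 0.01. Trrap, the scaffold that Myc binds, rose by 0.26 ± 0.03 on the log2 scale (SE, edgeR quasi-likelihood, adjusted p = 1.4e-06) and Ep400, a chromatin remodeller, rose by 0.12 ± 0.04 (adjusted p = 0.0116). Ep300, an acetyltransferase, fell by 0.36 ± 0.03 (adjusted p = 2.35e-08) and Ruvbl2, an ATPase of chromatin remodelling complexes, fell by 0.48 ± 0.04 (adjusted p = 4.32e-09). With library totals the count was 2 higher and 6 lower. Over all 10770 genes, library totals called 4613 higher and 1893 lower. On log2(FPKM + 1), limma called 3958 of them higher and 1660 lower.

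The Sin3 and histone deacetylase corepressors, through which Mxd proteins act, made a list of 18 genes. Of these, 1 (5.56%) was called higher and 10 (55.6%) lower (median -0.14), against 28.2% and 28.8% of all genes. With library totals the count was 7 higher and 4 lower, and on FPKM it was 4 higher and 3 lower. Under those scalings 70.4% to 70.9% of all genes called were higher. Sap30, a Sin3-associated subunit, fell by 0.79 ± 0.07 (edgeR quasi-likelihood, adjusted p = 2.46e-08) and Rbbp7, a histone-binding subunit, fell by 0.44 ± 0.03 (adjusted p = 1.11e-09), while Brms1l rose by 0.41 ± 0.06 (adjusted p = 1.72e-05). Of 14 partners of Mga in PRC1.6, 4 (28.6%) were called higher and 7 (50%) lower (median -0.12). The share called higher was close to that of all genes, 28.2%. These counts became 6 higher and 3 lower with library totals and 5 higher and 3 lower on FPKM. Ring1, a ubiquitin ligase of Polycomb complexes, rose by 0.64 ± 0.09 (adjusted p = 1.22e-05) and Rybp by 0.18 ± 0.05 (adjusted p = 0.00228). Cbx3, a reader of methylated histone H3, fell by 0.59 ± 0.04 (adjusted p = 5.05e-10) and Ehmt2, a histone H3 methyltransferase, fell by 0.37 ± 0.03 (adjusted p = 9.55e-09). Cbx3, Hdac1, Hdac2 and Wdr5 each stand in more than 1 list.

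Of 13 genes that act on the stability of Myc protein, 2 (15.4%) were called higher and 6 (46.2%) lower (median -0.05). Among all genes these shares were 28.2% and 28.8%. The counts became 4 and 4 with library totals, where 70.9% of all genes called were higher. Cip2a and Set, both inhibitors of the phosphatase PP2A that promotes Myc degradation, had log2 fold changes of -1.14 ± 0.04 and -0.68 ± 0.02 (edgeR quasi-likelihood, adjusted p = 1.09e-13 and 2e-14). Usp28, a deubiquitinase that stabilizes Myc, rose by 0.33 ± 0.05 and the ubiquitin ligase Stub1 by 0.23 ± 0.04 (adjusted p = 4.21e-05 and 0.000183). Myc protein was not measured in these data.

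Among 57 genes known to be activated by Myc, 40 (70.2%) were called lower and 5 (8.77%) higher, and 12 were not called. Of all genes tested, 28.8% were called lower and 28.2% higher. The median log2 fold change was -0.24 against 0.01 for all genes. With library totals 34 of the 57 were called lower and 8 higher, while 70.9% of all genes called were higher. All 6 cycling cell markers, with a median log2 fold change of -0.95, were lower in the same libraries, and their part in this count was not tested. This list was written after a published collection of Myc targets, recalled and not read from a file, and it also holds genes of cell division. Plk1, a mitotic kinase, fell most, from 147 ± 9.04 to 24.6 ± 0.634 TMM CPM, a log2 fold change of -2.58 ± 0.05 (edgeR quasi-likelihood, adjusted p = 7.84e-17). Hk2, the first enzyme of glycolysis, fell by 0.72 ± 0.03, and the mitochondrial chaperonin Hspd1 fell by 0.60 ± 0.03 (adjusted p = 1.88e-12 and 2.71e-12). Ung, a DNA repair glycosylase, rose by 0.46 ± 0.06 (adjusted p = 4.54e-06), and Tfb2m, Prmt3 and Rcl1 rose by 0.20, 0.17 and 0.14 (adjusted p = 0.027, 0.00691 and 0.0367). The call of Tfb2m was lost without control library 2 (0.16) or 3 (0.17) and without tranilast library 3 (0.19) or 4 (0.20). The call of Rcl1 was lost without control library 3 (0.11) or 4 (0.11), without tranilast library 1 (0.14), 2 (0.13) or 4 (0.13), and also with DESeq2 (0.13) and with no filter (0.13).

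Of 8 genes known to be repressed by Myc, 6 were tested. Of these, 3 (50%) were called higher and 3 (50%) lower, against 28.2% and 28.8% of all genes. Cdkn1a, the cell cycle inhibitor p21, rose from 361 ± 25.1 to 442 ± 23.9 TMM CPM, a log2 fold change of 0.29 ± 0.04 (edgeR quasi-likelihood, adjusted p = 1.86e-05). Cebpa, a differentiation factor, rose by 0.33 ± 0.06 (adjusted p = 0.000134) and Gadd45a by 0.72 ± 0.28 (adjusted p = 0.0371), the latter at no more than 3.002 TMM CPM. The call of Gadd45a was lost without control library 1 (0.66) or 2 (0.54) and without tranilast library 1 (0.72), 2 (0.68) or 4 (0.61). Cdkn1b, the inhibitor p27, fell by 0.43 ± 0.07, Ndrg1 fell by 0.40 ± 0.04 and Ndrg2 fell by 0.55 ± 0.04 (adjusted p = 4.41e-05, 4.18e-07 and 5.15e-10). Cdkn2b had no count in any library and Gas1 at most 1.

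Of 6 targets of MondoA and ChREBP, 4 were tested, of which 1 (25%) was called higher and 2 (50%) lower. Among all genes these shares were 28.2% and 28.8%. Txnip, the best known of the targets and a brake on glucose uptake, fell by 0.13 ± 0.03 (edgeR quasi-likelihood, adjusted p = 0.000591). This call was lost with upper-quartile factors (-0.06), library totals (-0.01) and FPKM (-0.01). Klf10 fell by 0.31 ± 0.05 and Khk, ketohexokinase, rose by 0.42 ± 0.09 (adjusted p = 4.54e-05 and 0.000403). Arrdc4 ranged from 1.49 to 2.86 TMM CPM in control and from 1.04 to 3.27 TMM CPM in tranilast and was not called (adjusted p = 0.853). Pklr, the liver pyruvate kinase, was at 0 in every library, and Gpd1 had 3 to 10 counts.

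**Figure D5:**
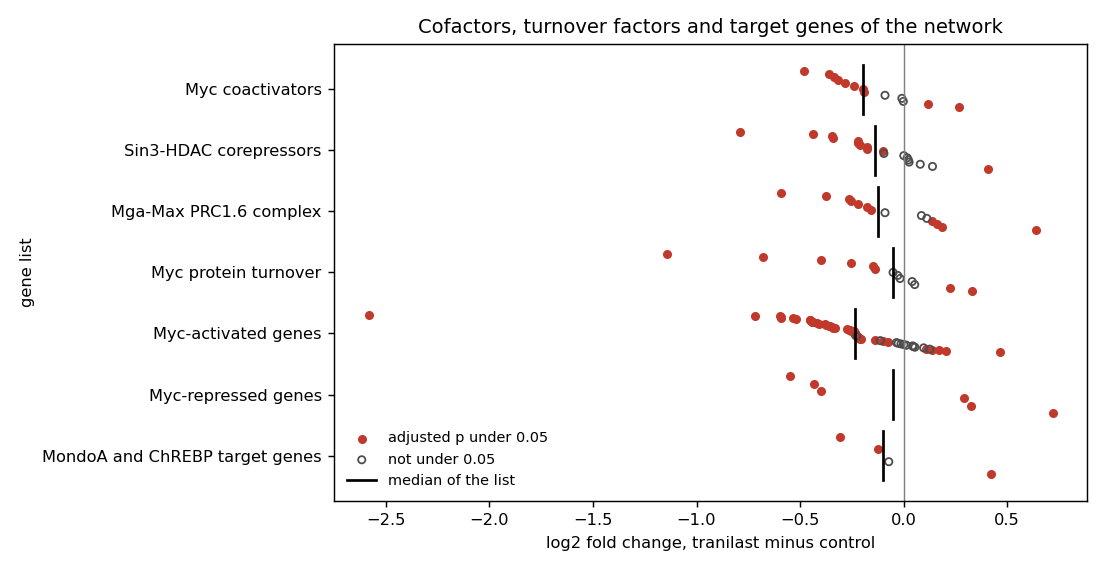
Log2 fold change, tranilast minus control, of each tested gene in the 7 lists of cofactors, turnover factors and target genes, with filled points for an adjusted p under 0.05 and a bar at the list median. Medians run from -0.24 for the Myc-activated genes to -0.05 for the turnover factors and Myc-repressed genes, beside 0.01 for all genes, and Plk1 stands apart at -2.58.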

How the data were processed

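The authors deposited 1 table for the whole series, with an estimated count and an FPKM value per gene and library; the FPKM values had been normalized by the authors for length and depth. Per the paper's methods, poly-A RNA was made into paired-end TruSeq libraries; the labels name a NovaSeq and the methods a HiSeq X-ten, and the aligner, counter and genome build are not given in the sources used here. The estimated counts were first made whole by rounding. Genes passing filterByExpr (10770) were fitted with edgeR 4.0.16 (TMM, quasi-likelihood) in R 4.3.3, with Benjamini-Hochberg adjustment over all genes tested and a call at an adjusted p under 0.05. The scripts were tested on simulated data. Alternatives used DESeq2 1.42.0 and limma 3.58.1, other scalings and filters, a replicate block, and each library left out in turn.

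The members and lists were chosen with earlier results of these data known. Named genes were the members, the small lists in full and, in the other lists, the 2 highest and 2 lowest called genes (4 and 4 for Myc-activated genes) with a mean count of at least 50; marker genes, Hdac1, Hdac2, Wdr5, Prelid1 and Psmc3ip were named after their values were seen. Libraries differed by 2.54 to 5.47 times sampling noise (chi-square per degree of freedom) within groups, so none was a duplicate. Nothing beyond the labels says that they came from separate mice, so p-values measure the spread between these samples. A count of 0 allows up to 3 counts, for counting error only. Gene coordinates are from GENCODE on GRCm38, matched by gene ID, and promoter windows are from RefSeq. No protein sequence was used here.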

Additional observations from a re-analysis of the deposited data

Results flagged for a closer look

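Of 86 groups of 4 libraries examined, over the members and the named genes, 7 held a library that stood apart from the other 3 by the Dixon criterion, and chance alone flags about 1 group in 20. Among the members this was Mga in tranilast library 4, at 128 TMM CPM against 142 to 144 in the others. Tranilast library 4 was also low for Brms1l, at 36.5 against 40.5 to 40.97 TMM CPM. Tranilast library 1 was high for Khk, at 19.8 against 17.97 to 18.2 TMM CPM, and low for Ndrg1, at 129 against 134 to 135 TMM CPM. Ndrg1 also stood apart in control library 3, at 194 against 168 to 170 TMM CPM. Cdkn1b was low in control library 2, at 44.3 against 52.3 to 53.7 TMM CPM, and Hk2 in control library 4, at 289 against 302 TMM CPM.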

How the results depend on the processing

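With library totals or FPKM (+ 1 or + 0.1), 2 members were called lower in place of 4, Mlxip reversed to 0.0226, 0.0235 and 0.0250, and Mycn to 0.0291, 0.0285 and 0.0286; Mlx reversed to 0.0284 with upper-quartile factors, 0.0777 with library totals and 0.107 and 0.11 on the FPKM scales. With library totals, both FPKM scales and upper-quartile factors, Mycn was no longer called, leaving 0 relatives called lower, and 1 MondoA and ChREBP target was called lower. Sin3-HDAC genes were called higher in 4 (upper-quartile), 7 (library totals) and 4 cases (each FPKM scale), and lower in 4 with library totals and 3 with FPKM. PRC1.6 genes called lower were 3 with library totals and with FPKM, turnover genes called higher were 4 with library totals, and Myc-activated genes called higher were 8 with library totals and FPKM and ranged from 3 to 5 with 1 library left out (3 without control replicate 3 or tranilast replicate 4). With a log2 fold change of 1.5 or more in size also required, 1 member was called higher and 1 lower, 1 Myc-activated gene lower and 0 higher, and 0 genes of every other list in either direction. Arrdc4 reversed to 0.0441 with library totals and ranged from -0.36 to 0.14 with 1 library left out, reversing to 0.07 without control replicate 4 and 0.14 without tranilast replicate 3. With upper-quartile factors, library totals and FPKM, 62.6% to 70.9% of all genes called were higher in tranilast, against 49.5% with TMM. The cause of the changes listed here was not tested beyond the scaling itself.

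The remaining 298 of 342 list counts kept within 1.5 times their value, and 720 of 773 gene values kept direction and call. Myc was not tested when at least 10 counts were required in every library. The replicate block gave 6009 calls in place of 6143 over all genes and ended the calls of Mlxip and Gadd45a (the latter at an adjusted p of 0.0509); same-numbered libraries deviated together with correlations of only -0.0566 to 0.103, so the numbers were not taken to pair them. Levels from CPM divided by a stated transcript length were not run, because the table gives no length. Depth limits Myc, Mxd3, Gadd45a and Arrdc4 most.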
